A study of Mus musculus with 2 samples.

Results

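Mitral valve cells carry transcripts of both activators and inhibitors of Wnt signalling. A set of 9 genes of this kind was followed here in droplet single-cell RNA data: the agonist genes Rspo3 and Wnt9a, the secreted antagonist genes Wif1, Frzb, Sfrp1, Sfrp2 and Dkk3, and the target genes Axin2 and Lef1. They were chosen by symbol as 9 of the 32285 genes in the count tables. A library came from each genotype. The wild type library was made from 5 pooled mice (Fbn1 +/+) and the other from 3 pooled mice heterozygous for Fbn1 C1039G, a fibrillin-1 missense allele used as a mouse model of Marfan syndrome. All mice were of strain C57BL/6J and 1 month old. Whole anterior and posterior leaflets were dissociated with enzymes, and the pooling leaves 1 library for each genotype. No difference between the libraries could therefore be tested between replicates, and genotype cannot be told apart from pool, dissection or capture.

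Wnt proteins are secreted lipid-modified ligands that bind Frizzled receptors together with Lrp5 or Lrp6, which stabilises beta-catenin and lets it act with TCF and LEF factors at target genes. R-spondins such as Rspo3 raise the number of Frizzled receptors at the cell surface by binding Lgr receptors and the ubiquitin ligases Znrf3 and Rnf43. Wif1 and the secreted Frizzled-related proteins bind Wnt ligands outside the cell, and Dkk3 is a divergent member of the Dickkopf family whose action on Wnt signalling is less settled. In the heart, Wnt signals take part in the growth of endocardial cushions and in the maturation of valve leaflets.

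The libraries held 9509 wild type and 9744 Fbn1 C1039G/+ barcodes with 100969482 and 103663375 unique molecular identifiers (UMIs, each a counted RNA molecule), and shared 17 barcode sequences. After barcodes under 1000 UMIs or with more than 20% of UMIs from mitochondrial genes were dropped, 9395 and 9540 were left. Interstitial cells, the fibroblast-like cells of the leaflet, were those with at least 1% of UMIs from the 4 matrix genes Dcn, Col1a1, Col1a2 and Col3a1, and numbered 7557 and 7768. Below that share, 813 and 890 barcodes with at least 10 UMIs of C1qa, C1qb and C1qc were classed as macrophages, and 250 and 318 with at least 5 UMIs of Pecam1, Cdh5 and Emcn as endothelial cells. Markers outside the rule went with the endothelial and macrophage names. The summed level of 7 further endothelial genes was 2899 and 3025 UMIs per 1000000 (CPM) in endothelial cells against 75.8 and 117 CPM in interstitial cells. In macrophages the summed level of 6 further macrophage genes was 10321 and 11221 CPM, against 260 and 199.7 CPM in interstitial cells. Interstitial genes outside the rule were mixed. In endothelial cells Lum, Dpt and Fbln1 were at 12.2% or less of their interstitial level. Pdgfra was higher there (232% and 412%), and Vim (90.3% and 106%), Postn (53.8% and 69.1%) and Vcan (37.4% and 36.1%) separated the classes less. Fbn1 itself stood at 413 CPM in wild type and 447 CPM in Fbn1 C1039G/+ interstitial cells, and a missense allele does not lower the count by itself, so this level checks no label. Intervals below are 95% intervals that cover counting error only.

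The 250 bases before the RefSeq start are shown for Wnt9a, Sfrp2 and both target genes. Wnt9a and Sfrp2 are a ligand and an antagonist gene that differed in opposite directions between the libraries. Bases outside this window, where TCF and LEF factors can also bind, were not searched. A window without their motif therefore does not show that these factors leave a gene alone. RefSeq promoters of GRCm38.p6 were matched for 6 of the 9 genes, and for Lef1 the most upstream of 4 is given. Capitals mark CTTTG, the core of the TCF and LEF motif, searched on both strands (CTTTG and CAAAG).
Wnt9a promoter, chr11:59306680-59306929, plus strand: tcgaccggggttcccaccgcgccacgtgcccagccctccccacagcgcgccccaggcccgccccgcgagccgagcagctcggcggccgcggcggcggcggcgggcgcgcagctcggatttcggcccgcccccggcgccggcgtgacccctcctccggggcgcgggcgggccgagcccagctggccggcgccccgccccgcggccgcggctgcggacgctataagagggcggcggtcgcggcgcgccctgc
Sfrp2 promoter, chr3:83766071-83766320, plus strand: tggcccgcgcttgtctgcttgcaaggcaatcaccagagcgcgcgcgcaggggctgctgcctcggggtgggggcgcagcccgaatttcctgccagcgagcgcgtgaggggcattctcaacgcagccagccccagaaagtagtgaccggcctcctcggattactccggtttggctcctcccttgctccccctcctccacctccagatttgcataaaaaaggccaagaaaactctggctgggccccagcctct
Axin2 promoter, chr11:108920099-108920348, plus strand: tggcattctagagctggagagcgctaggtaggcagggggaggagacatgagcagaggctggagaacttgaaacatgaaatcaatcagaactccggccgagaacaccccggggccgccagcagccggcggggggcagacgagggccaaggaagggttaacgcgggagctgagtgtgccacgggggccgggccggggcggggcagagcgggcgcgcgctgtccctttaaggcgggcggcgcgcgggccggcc
Lef1 promoter, chr3:131110047-131110296, plus strand: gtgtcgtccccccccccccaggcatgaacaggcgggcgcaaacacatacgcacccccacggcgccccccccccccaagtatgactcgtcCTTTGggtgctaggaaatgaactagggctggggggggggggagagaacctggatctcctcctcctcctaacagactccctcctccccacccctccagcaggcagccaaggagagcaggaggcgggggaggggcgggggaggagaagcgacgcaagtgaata
In this window the core stood once before Lef1 and was not among the letters before Wnt9a, Sfrp2 or Axin2. It also stood once before Wif1 and once before Frzb, so 3 of the 6 matched genes held it. The other Lef1 promoters held it 2, 1 and 3 times. Of 32851 promoter windows of the same length, 48.6% held the core, so its presence is common. The longer forms CTTTGAT and CTTTGAA were in 7.48% of windows and in none of the windows of the 6 matched genes. The window before Wnt9a was 84.4% G and C, against 63.6% before Sfrp2, 69.2% before Axin2 and 66.4% before Lef1.

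All 9 genes were higher in interstitial cells than in macrophages, and in endothelial cells only Axin2 came close to its interstitial level. Lef1 was close, at 12.0 and 12.6 CPM, in the 775 wild type and 564 Fbn1 C1039G/+ barcodes that fell in no class. Its interstitial level was 13.9 and 12.9 CPM. Rspo3 stood at 119 and 81.4 CPM in interstitial cells (wild type first, here and below), 31.2 and 16.8 CPM in endothelial cells and 7.78 and 2.92 CPM in macrophages. The ligand gene Wnt9a was at 29.5 and 15.5 CPM in interstitial cells and at 2.64 and 2.05 CPM in endothelial cells, the latter from 10 UMIs in each library. Wif1, which encodes a Wnt-binding inhibitor, was at 946 and 702 CPM in interstitial cells against 42.5 and 20.9 CPM in endothelial cells. Dkk3 was the most abundant of the 9 in interstitial cells, at 964 and 1038 CPM, and was found in 96.2% and 96.9% of them. The Frizzled-related genes Frzb (411 and 524 CPM), Sfrp2 (349 and 445 CPM) and Sfrp1 (188 and 186 CPM) followed in that order in both libraries. These are counts at the 3′ end of transcripts, in which gene length does not enter.

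Free RNA in the suspension gives low counts in every class. The 4 matrix genes stood in macrophages at 3.65% and 2.22% of their interstitial level, but the class rule holds them low there, so 7 interstitial markers outside the rule are given too. Vim, which many cell types express, was at 25.8% and 22.8% in macrophages, and the other 6 were at 4.07% to 9.50% in wild type and 2.65% to 6.34% in Fbn1 C1039G/+. The 5 antagonist genes were at 2.75% to 4.85% and 1.76% to 5.21%, none above the highest of those 6, and their macrophage levels are not read as expression. In endothelial cells the same 7 markers gave no single background level, from 2.49% (Dpt) to 232% (Pdgfra) in wild type. Endothelial Wif1, Frzb, Sfrp1, Sfrp2 and Dkk3 stood at 0.605% to 6.82% of their interstitial level over both libraries. Rspo3 stood at 26.3% and 20.7% and Axin2 at 75.4% and 114%. Lef1 stood at 62.6% and 27.1% in endothelial cells, from 33 and 17 UMIs.

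**Figure D1:**
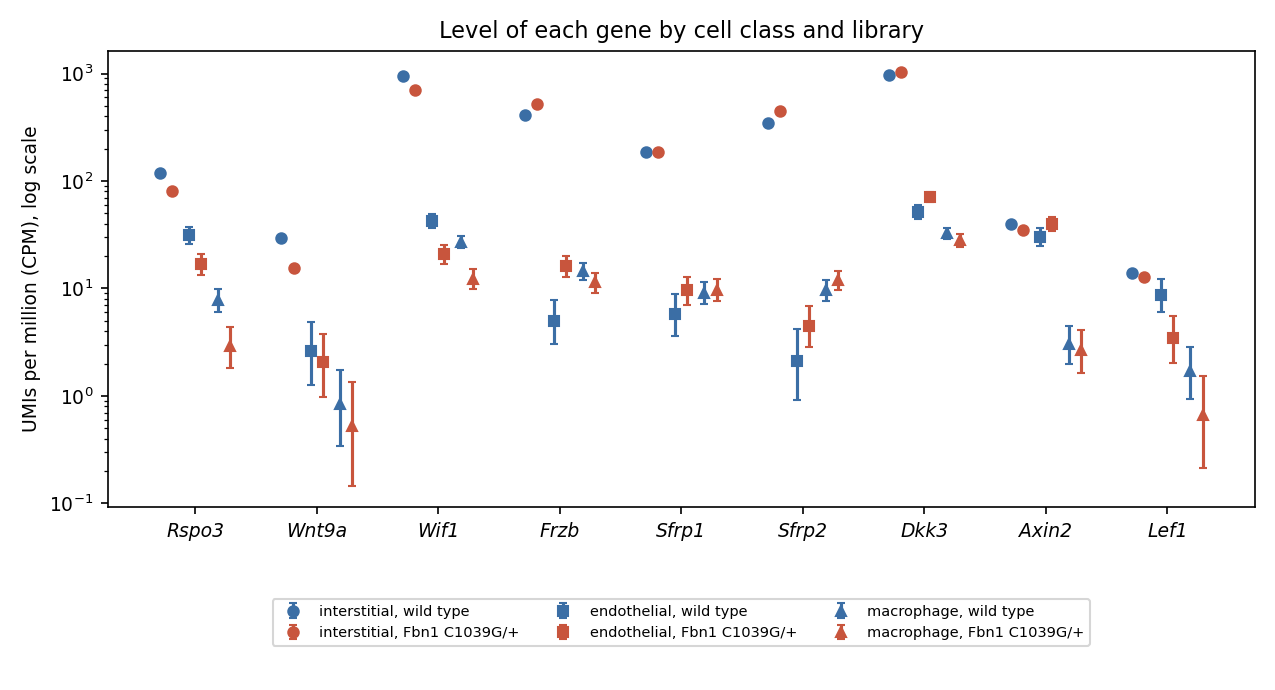
Level of the 9 genes in CPM (log axis) in interstitial cells (circles), endothelial cells (squares) and macrophages (triangles) of the wild type library (blue) and the Fbn1 C1039G/+ library (red); bars are exact Poisson 95% intervals for counting error. Interstitial points lie highest for every gene in wild type, and for every gene except Axin2 in Fbn1 C1039G/+. Axin2 was at 30.1 CPM in endothelial and 39.9 CPM in interstitial cells of wild type, and at 39.8 and 35.0 CPM in Fbn1 C1039G/+.

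Between the libraries, both agonist genes and Wif1 were lower in Fbn1 C1039G/+ interstitial cells, Frzb and Sfrp2 were higher, and Sfrp1 and Dkk3 were close to wild type. A difference was called where it reached 1.5-fold and its interval left out 1, among genes that reached 20 CPM in 1 library or both and had 50 or more UMIs in total, called measured genes below. By that rule Wnt9a was called lower and none of the other 7 measured genes was called, beside 1.42% of all 6563 measured genes called lower and 0.945% called higher. The median log2 ratio of the 8 measured genes was -0.10, against 0.04 over all measured genes. Lef1 stayed under 20 CPM in both libraries and was not measured by that rule.

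Among the agonists, Wnt9a was at 29.5 CPM (28.4 to 30.7) in wild type and 15.5 CPM (14.7 to 16.3) in Fbn1 C1039G/+. Its ratio of 0.525 (0.491 to 0.561) was lower than that of all but 0.564% of measured genes. After each cell was thinned to 5000 UMIs, a Wnt9a UMI was found in 11.6% of 7382 wild type and 7.08% of 7147 Fbn1 C1039G/+ interstitial cells, and before thinning in 20.5% and 12.7%. Thinning left out 2.32% of wild type and 7.99% of Fbn1 C1039G/+ interstitial cells for having fewer UMIs. Macrophages held a Wnt9a UMI in 0.738% and 0.337% of cells before thinning, at median depths of 8328 and 7432 UMIs against 10086 and 10094.5 in interstitial cells. Rspo3 had a ratio of 0.687 (0.666 to 0.708), at the 1.57th percentile of measured genes, and its thinned share was 34.3% and 25.8% of cells, against 2.05% and 0.432% of macrophages. Its UMIs per cell that held any were 1.93 and 1.80 after thinning, a smaller difference than that in the share of cells.

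Of the antagonists, Wif1 had a ratio of 0.742 (0.734 to 0.75), at the 2.42nd percentile, and was found in 65.9% and 57.1% of thinned interstitial cells. Up to 163 Wif1 UMIs came from a single wild type cell, and the cells in the top 10% for Wif1 held 48.6% of its wild type UMIs. Frzb, a secreted Frizzled-related protein first known from cartilage, had a ratio of 1.28 (1.26 to 1.29) and was found in 70.6% and 79.4% of thinned cells. Sfrp2 also had a ratio of 1.28 (1.26 to 1.29), and its thinned share was 32.6% and 38.9%. Frzb and Sfrp2 both lay at the 97.0th percentile. Sfrp2 was the most concentrated antagonist, with 72.2% and 68.7% of its UMIs in 10% of cells, whereas for Dkk3 that share was 25.9% and 26.1%. Sfrp1 had a ratio of 0.988 (0.967 to 1.01) and Dkk3 a ratio of 1.08 (1.07 to 1.09). In macrophages the thinned shares were 6.02% and 4.32% for Wif1, 3.97% and 4.46% for Frzb and 3.15% and 3.88% for Sfrp2. At a lower bar (an increase of 25% or the matching decrease), Frzb and Sfrp2 were called higher and Rspo3, Wnt9a and Wif1 lower, where 3.78% of all measured genes were called higher and 3.81% lower.

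Neither target gene reached a 1.5-fold difference between the libraries in interstitial cells. Axin2, a feedback inhibitor whose transcript is widely used as a readout of beta-catenin signalling, was at 39.9 and 35.0 CPM. Its ratio of 0.875 (0.833 to 0.92) lay at the 7.47th percentile of measured genes. Lef1, a TCF/LEF family transcription factor, was at 13.9 CPM (13.1 to 14.8) and 12.9 CPM (12.2 to 13.7), and its ratio interval of 0.852 to 1.01 included 1. In endothelial cells Axin2 lay the other way, at 30.1 and 39.8 CPM (ratio 1.32, 1.04 to 1.68), from 114 and 194 UMIs in 250 and 318 cells. Endothelial Lef1 was at 8.72 and 3.49 CPM (ratio 0.400, 0.209 to 0.739), under the level that made a gene measured. Rspo3 was called lower in endothelial cells (ratio 0.540, 0.402 to 0.722), and without the cell holding most of its UMIs in each library the ratio was 0.578. Wif1 was also called lower there (0.492, 0.380 to 0.635), but 69 of its 161 wild type UMIs came from 1 cell. Without that cell its ratio was 0.848 (0.634 to 1.14), which is not called. Dkk3 and Axin2 were measured there and not called. In that class 3.23% of 7240 measured genes were called lower and 3.22% higher. Macrophage Wif1, at 27.2 and 12.3 CPM, was also called lower, and Dkk3 (32.6 and 28.2 CPM) was not, beside 3.47% of 6160 measured genes called lower and 1.40% higher. The matrix genes were also lower in Fbn1 C1039G/+ macrophages, as given above, and the part of free RNA in the Wif1 difference was not tested.

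Cells could be split by sex of origin from Xist and 4 Y-linked genes, and the directions were mostly shared. Wnt9a was called lower in both female (ratio 0.469) and male cells (0.588). Of the sexes, female cells had Rspo3 called lower, at a ratio of 0.613 (0.584 to 0.644) against 0.765 (0.730 to 0.802) in male cells, and this difference was not tested. Sfrp2 differed more in male cells (1.45) than in female cells (1.10), and Frzb had ratios of 1.28 and 1.27. Sfrp1 was at 213 and 189 CPM in female cells and at 167 and 183 CPM in male cells. With 3 mice in the Fbn1 C1039G/+ pool, at least 1 sex there comes from a single mouse, so sex and mouse cannot be told apart.

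**Figure D2:**
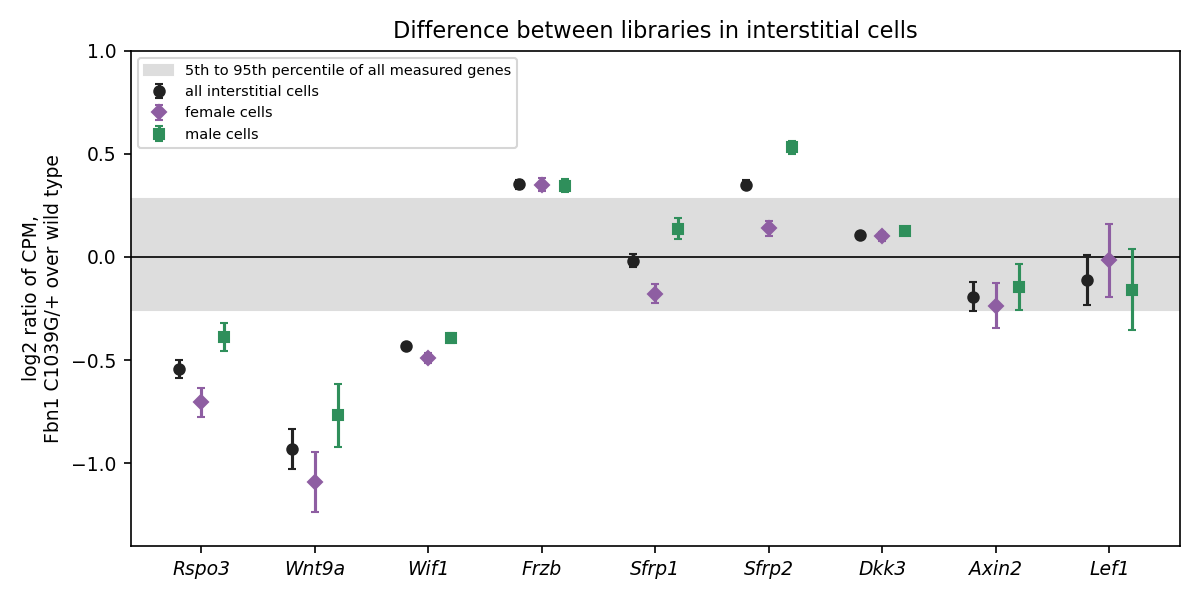
Log2 ratio of CPM, Fbn1 C1039G/+ over wild type, for each gene in all interstitial cells (black circles), female cells (purple diamonds) and male cells (green squares), with 95% counting intervals; the grey band spans the 5th to the 95th percentile of all 6563 measured genes. Rspo3, Wnt9a and Wif1 lie below the band in all cells, and Frzb and Sfrp2 lie above it.

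Levels of several of these genes followed how much of a cell's RNA came from the 4 matrix genes, which the class rule itself uses. In wild type cells with 1% to 2%, 2% to 5% and at least 5% of such UMIs, Rspo3 stood at 163, 112 and 33.2 CPM. Lef1 took the same order, at 20.9, 12.6 and 3.54 CPM. Sfrp2 took the opposite order, at 120, 344 and 1295 CPM, as did Frzb, at 223, 447 and 676 CPM. Wif1 (643, 1009 and 1331 CPM) and Dkk3 (678, 1027 and 1284 CPM) rose in the same way. Axin2 (37.6, 41.1 and 34.4 CPM) and Wnt9a (26.3, 30.9 and 24.6 CPM) showed little order. The libraries were not matched on this measure: cells with at least 5% made up 5.20% of wild type and 11.6% of Fbn1 C1039G/+ interstitial cells.

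Within these ranges the differences between libraries were not all of the same size. Wnt9a was called lower in each range, with ratios of 0.489, 0.518 and 0.651. Wif1 was lower in each (0.612, 0.740 and 0.653), and Frzb higher in each (1.21, 1.20 and 1.18). Rspo3 was lower in cells under 5% (0.703 and 0.725), but not in cells with at least 5%, where its ratio was 1.12 (0.929 to 1.36). For Sfrp2 the ratios were 1.15, 1.11 and 0.975, nearer to 1 in each range than the 1.28 over all interstitial cells.

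**Figure D3:**
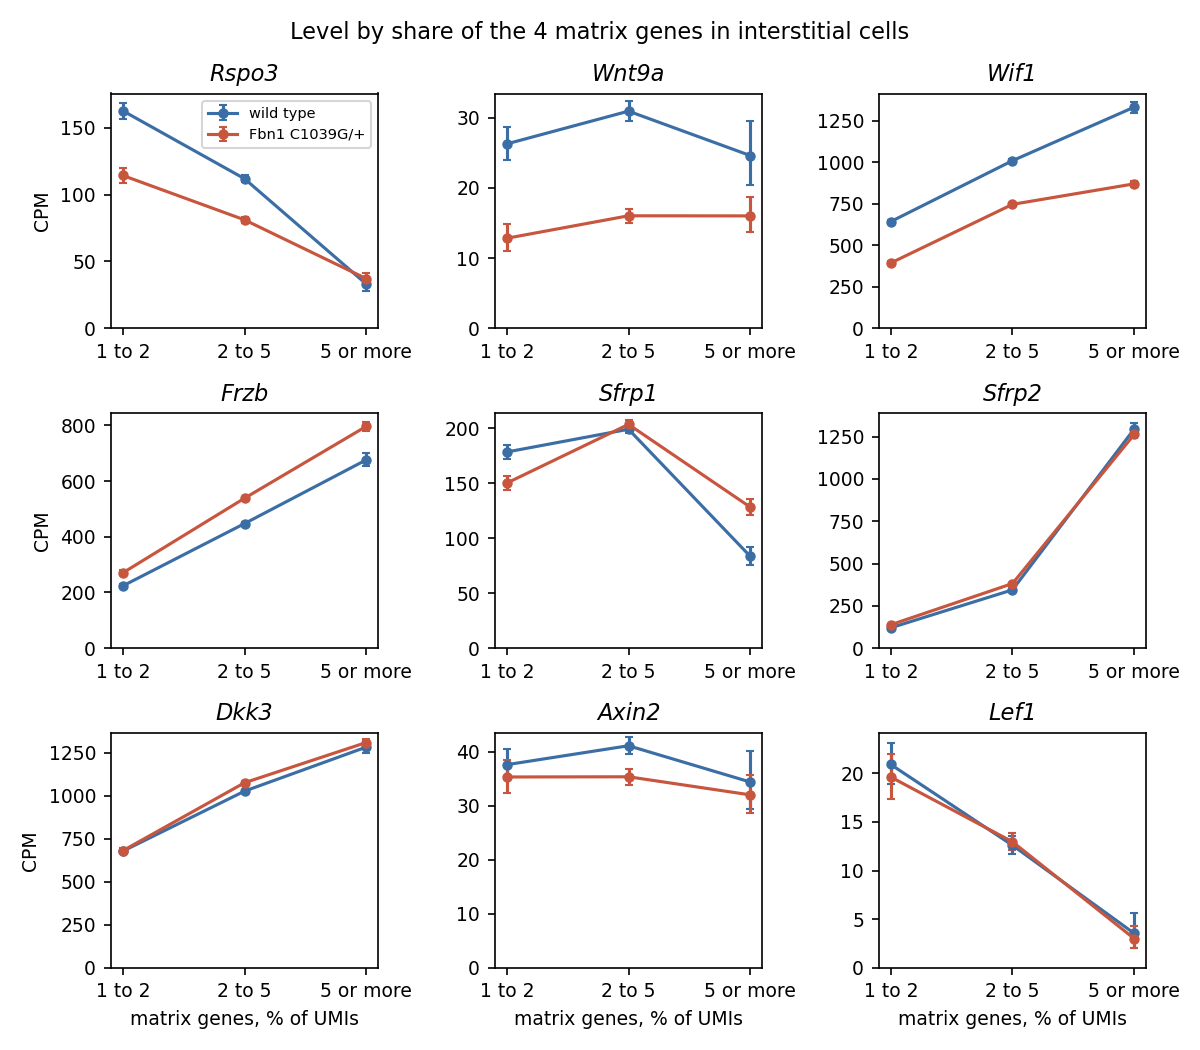
Level of each gene in CPM (linear axes from 0) in interstitial cells with 1% to 2%, 2% to 5% and at least 5% of UMIs from the 4 matrix genes, in wild type (blue) and Fbn1 C1039G/+ (red); bars are 95% counting intervals. Rspo3 and Lef1 are lower and Sfrp2, Frzb, Wif1 and Dkk3 higher where the matrix share is higher, in both libraries.

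Agonist transcripts lay in cells that also held antagonist transcripts. In thinned interstitial cells, an Rspo3 or Wnt9a UMI was found in 3071 wild type and 2226 Fbn1 C1039G/+ cells, and 99.7% of these held a UMI of at least 1 of the 5 antagonists in each library. Cells with an agonist and no antagonist numbered 9 and 7. That overlap is not particular to agonist cells, since 98.8% and 99.0% of cells without an agonist UMI also held an antagonist. Dkk3 by itself was in 92.4% and 94.1% of all thinned interstitial cells, and in 2912 and 2152 of the cells with an agonist. The any-antagonist share therefore rests largely on Dkk3. Interstitial cells most often held 3 of the 5 antagonist genes (37.4% and 35.3% of cells), and all 5 were found in 5.42% and 7.44%. Rspo3 and Wnt9a UMIs were found together in 4.32% of wild type and 1.73% of Fbn1 C1039G/+ cells. Wnt9a was in 12.6% of wild type cells with Rspo3 and 11.1% of those without, a difference of 1.53 percentage points whose interval (-0.01 to 3.12) included 0. In Fbn1 C1039G/+ the shares were 6.72% and 7.20%, a difference of -0.48 points (-1.76 to 0.92).

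Which antagonist accompanied the agonists did vary. Wif1 was found in 76.5% of wild type cells with an agonist and in 58.4% of those without, a difference of 18.1 points (16.0 to 20.2). In Fbn1 C1039G/+ these shares were 72.1% and 50.3%, a difference of 21.9 points (19.5 to 24.2). Sfrp2 went the opposite way, at 21.3% with an agonist and 40.6% without in wild type (a difference of -19.3 points, -21.4 to -17.2). The same split in Fbn1 C1039G/+ gave 26.1% and 44.7% (-18.5 points, -20.8 to -16.2). Frzb (-3.87 and -2.05 points), Sfrp1 (3.47 and 8.82 points) and Dkk3 (4.19 and 3.71 points) differed by less.

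Rspo3 and Wnt9a differed in the antagonists that went with them. Sfrp2 was found in 16.6% and 22.0% of cells with Rspo3, against 41.0% and 44.8% of cells without it. Cells with Wnt9a held Sfrp2 in 33.9% and 41.1%, within counting error of the 32.4% and 38.7% in cells without Wnt9a. Sfrp1 split the agonists in another way: it was more frequent with Rspo3 (49.8% against 41.7% in wild type) and less frequent with Wnt9a (35.3% against 45.7%). In Fbn1 C1039G/+ Sfrp1 was in 53.5% of cells with Rspo3 against 41.1% without, and in 39.1% of cells with Wnt9a against 44.7% without. Across cells of each library, Pearson's r of log UMI counts was 0.21 and 0.25 for Rspo3 with Wif1 and -0.25 and -0.21 for Rspo3 with Sfrp2, over 7382 and 7147 cells that share a library and a thinned depth. The highest values among the antagonists were Frzb with Dkk3 (0.34 and 0.30) and Wif1 with Dkk3 (0.33 and 0.26).

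**Figure D4:**
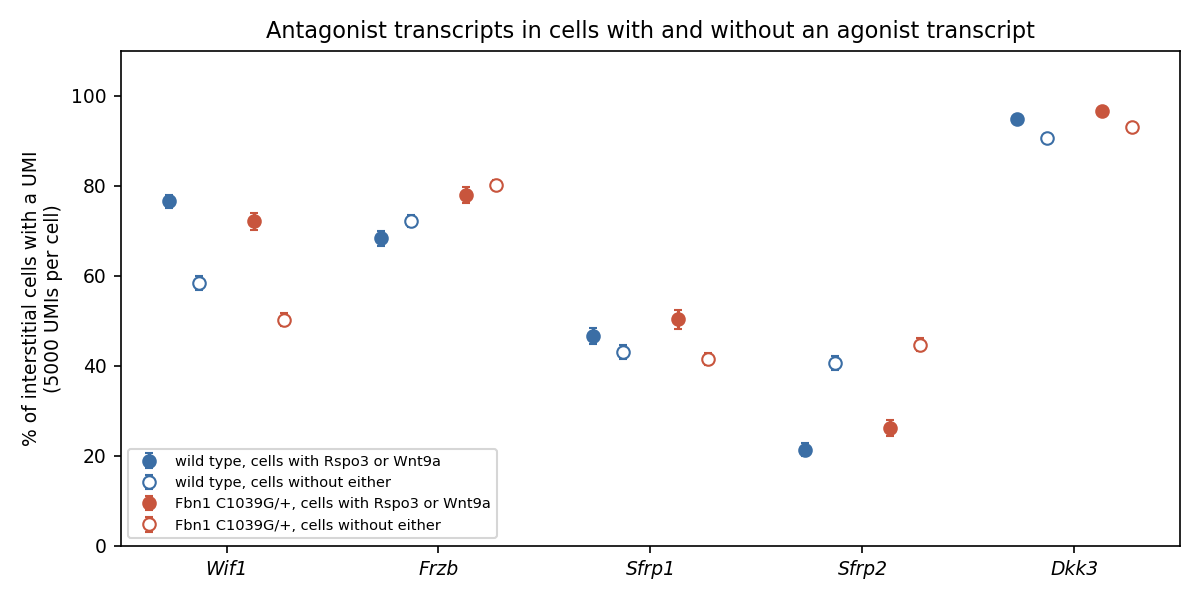
Percentage of interstitial cells with a UMI of each antagonist gene, all cells thinned to 5000 UMIs, among cells with an Rspo3 or Wnt9a UMI (filled) and without either (open), in wild type (blue) and Fbn1 C1039G/+ (red), with exact binomial 95% intervals. Filled points lie above open points for Wif1 and below them for Sfrp2 in both libraries.

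Target transcripts were higher in cells with an agonist transcript, Lef1 more so than Axin2. Such rises were not particular to the agonists, since some antagonist splits given below also had them. Wild type Lef1 was at 22.5 CPM in cells with an agonist and 9.56 CPM in the others (ratio 2.35, 1.97 to 2.81). The ratio in Fbn1 C1039G/+ cells was 1.68 (1.40 to 2.02), from levels of 18.6 and 11.1 CPM. Axin2 stood at 46.1 and 37.1 CPM in wild type (1.24, 1.12 to 1.38) and at 37.1 and 32.6 CPM in Fbn1 C1039G/+ (1.14, 1.01 to 1.28). Split by Rspo3 alone, the Lef1 ratio was 2.53 and 1.75, and split by Wnt9a alone it was 1.15 (0.883 to 1.47) and 1.13 (0.790 to 1.58), with 1 inside both intervals. For Axin2, Wnt9a gave ratios of 1.21 (1.04 to 1.40) and 1.20 (0.972 to 1.47). The matrix share went with these ratios. In wild type the log2 ratio of Lef1 was 0.84 (0.42 to 1.28) among cells with 1% to 2% of matrix UMIs and 1.32 (1.01 to 1.65) among those with 2% to 5%. In Fbn1 C1039G/+ it was 0.18 (-0.39 to 0.73) and 0.87 (0.56 to 1.18), and for Axin2 it was -0.012 and 0.19, against 0.29 in both ranges in wild type.

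Axin2, Lef1 and 17 further genes known to be induced by Wnt signalling made a list of 19, of which 17 had at least 50 UMIs. It joined the 15 genes of the target list with Lgr5, Notum, Znrf3 and Rnf43, taken from other pathway lists. Of these 17, 11 were higher in wild type cells with an agonist and 3 lower, by an interval that left out 1, and in Fbn1 C1039G/+ 9 were higher and 4 lower. The added genes were all among the higher in wild type (Lgr5 2.05, Notum 1.67, Znrf3 1.24 and Rnf43 3.30). In Fbn1 C1039G/+ all of them but Notum were, so the counts rest in part on these additions. Over all genes with at least 50 UMIs, 11.1% were higher and 17.3% lower in wild type (12460 genes), and 11.0% and 14.9% in Fbn1 C1039G/+. With the added genes in it, the list had a median log2 ratio of 0.31 and 0.28, against -0.02 and -0.01 over all genes. This median also rests in part on the added genes, and it was not computed without them. Members with the highest ratios, picked out after their values were seen, were Sp5, a transcription factor gene (4.84 and 2.64), and Rnf43, the ubiquitin ligase that R-spondins bind (3.30 and 2.48). Those lower in both libraries were Ccnd1, encoding cyclin D1 (0.779 and 0.657), Ccn4, a matricellular gene (0.445 and 0.464), and Nkd1 (0.898 and 0.823). Nkd2 was lower in Fbn1 C1039G/+ (0.845) and neither in wild type (0.971). Tcf7 was higher in wild type (1.42) and neither in Fbn1 C1039G/+ (0.743).

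Cells with antagonist transcripts differed in Lef1 as well, and not in a single direction. Lef1 stood at 17.5 CPM in wild type cells with Wif1 and at 9.86 CPM in those without, and the ratio in Fbn1 C1039G/+ was 1.35 (1.12 to 1.64). With Sfrp2 it stood at 5.82 CPM against 19.3 CPM, a ratio of 0.301 (0.231 to 0.388), and in Fbn1 C1039G/+ at 6.69 against 17.7 CPM, a ratio of 0.378 (0.298 to 0.475). Wild type cells with an agonist and no Sfrp2 had the highest Lef1 level of the 4 combinations, at 25.9 CPM (23.1 to 28.9), and those with Sfrp2 and no agonist the lowest, at 4.34 CPM (3.07 to 5.96). The same order held in Fbn1 C1039G/+, at 21.8 and 5.91 CPM. Axin2 in wild type cells with Sfrp2 stood at 37.6 CPM against 42.4 CPM without, and in Fbn1 C1039G/+ at 33.1 against 34.6 CPM. Among cells without an agonist, Axin2 was higher with Wif1 (40.6 against 32.1 CPM in wild type, 34.6 against 30.6 CPM in Fbn1 C1039G/+). It was also higher there with Dkk3 (37.9 against 28.7 and 33.1 against 26.0 CPM), and slightly lower with Frzb, Sfrp1 or Sfrp2. Lef1 was higher there with Dkk3 too (9.93 against 5.94 and 11.4 against 6.36 CPM).

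**Figure D5:**
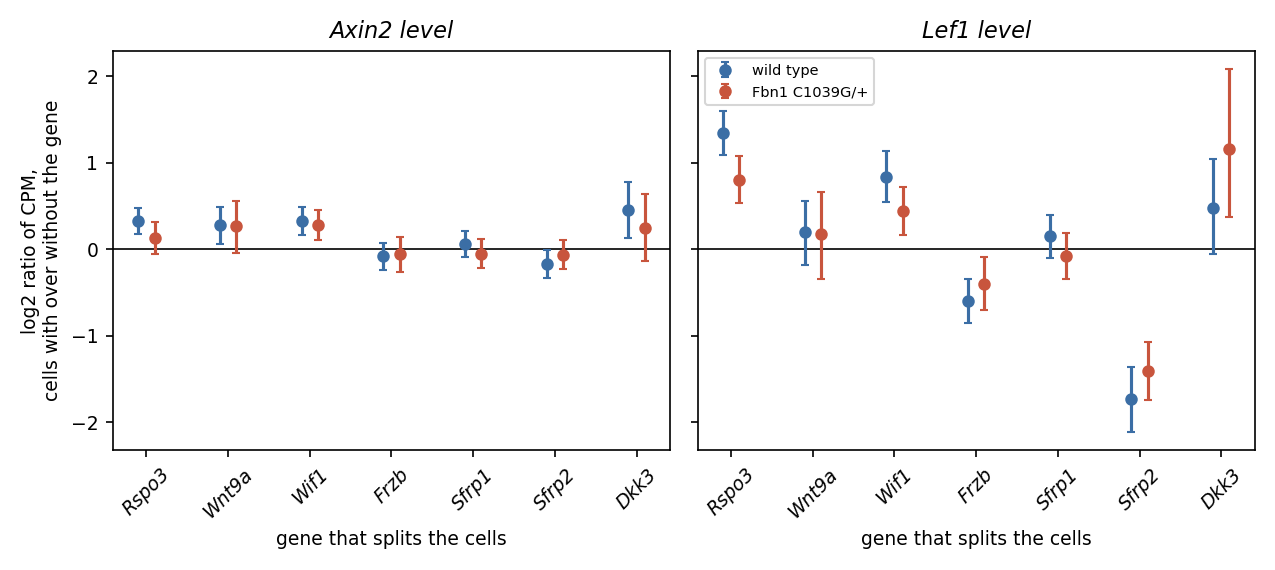
Log2 ratio of Axin2 (left) and Lef1 (right) CPM in interstitial cells with over without a UMI of the gene on the x axis, for wild type (blue) and Fbn1 C1039G/+ (red), with 95% counting intervals. Lef1 ratios lie above 0 for Rspo3 and Wif1 and below 0 for Frzb and Sfrp2 in both libraries, and Axin2 ratios lie nearer to 0 for those 4 genes.

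The genes were not spread evenly over interstitial states, marked here by cells with at least 2 UMIs of 1 of 13 anchor genes. Rspo3 and Wif1 were higher in cells marked by Angpt1, a vascular growth factor gene, than in cells without it: Rspo3 stood at 324 and 263 CPM against 104 and 70.9 CPM, and Wif1 was 2.38 and 2.64 times higher. Sfrp2 was 4.65 and 3.11 times higher with Cilp2, a cartilage matrix gene. Sfrp1 was 3.23 and 2.23 times higher with the complement gene C3. Wnt9a was 2.39 and 2.52 times higher with Chad, which encodes chondroadherin, and Lef1 was 4.20 and 4.51 times higher with Prss35. Wif1 was low in cells marked by Notch3, which encodes a Notch receptor (139 and 90 cells), at 63.3 and 40.0 CPM against 1021 and 769 CPM in cells without it.

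Differences between the libraries had the same sign in most of these 13 overlapping sets of cells. Rspo3 and Wnt9a were lower in Fbn1 C1039G/+ in 13 of 13, with the interval below 1 in 8 and 7. Wif1 was lower in 12 of 13, the exception being cells marked by C3 (ratio 1.02), and Frzb higher in 13 of 13. Sfrp2 was higher in 12 of 13, and in cells marked by Prss35 it was lower (0.703, 0.638 to 0.774). Sfrp1, at a ratio of 0.988 over all interstitial cells, was higher in 10 of 13 and lower in 3. Its interval lay above 1 in 8 and below 1 in 2.

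By likeness across cells, the genes closest to each member were taken from 8313 genes found in at least 5% of cells of both libraries, named where Pearson's r was at least 0.2 in both. Rspo3 was most like Myoc (0.28 and 0.30), Cyp2e1 (0.26 and 0.30) and Angpt1 (0.25 and 0.25). Wif1 was most like the proteoglycan genes Prelp (0.35 and 0.32) and Prg4 (0.35 and 0.31) and like Crispld2 (0.32 and 0.33). Dkk3 shared Prelp (0.43 and 0.40) and Prg4 (0.44 and 0.38) with Wif1, followed by Fmod (0.35 and 0.33). Frzb was most like Ecrg4 (0.41 and 0.40), Fibin (0.44 and 0.39) and Fmod (0.41 and 0.36). Sfrp1 was most like the complement gene C4b (0.42 and 0.37), then Gas6 (0.41 and 0.33) and Fgl2 (0.39 and 0.33). Sfrp2 was most like Ccn5 (0.49 and 0.53), Ogn (0.48 and 0.50) and Col1a2 (0.44 and 0.43), the last being 1 of the genes in the class rule. For Wnt9a, Axin2 and Lef1 no gene reached 0.2 in both libraries.

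Few other measured genes of the pathway were called between the libraries in interstitial cells, where few of all measured genes were (0.945% higher and 1.42% lower). Many could not be called: 4 of 19 ligand genes, 2 of 9 R-spondin and receptor genes and 5 of 14 antagonist genes were measured. Some under 20 CPM differed by at least 1.5-fold. Rnf43 was at 4.27 and 1.63 CPM (ratio 0.382, 0.312 to 0.466) and Wnt2 at 8.65 and 14.7 CPM (1.70, 1.55 to 1.86). Of 92 genes in 6 pathway lists, the most abundant ligand gene was Wnt5a (177 and 174 CPM), followed by Wnt16 (52.3 and 41.2 CPM). Fzd1 (143 and 181 CPM) and Ryk (134 and 135 CPM) led the receptors, of which 7 of 17 were measured and none was called. Of 18 transducers, 12 were measured and none called, led by the co-repressor gene Tle5 (463 and 476 CPM) and by Ctnnb1, encoding beta-catenin (300 and 284 CPM). Lgr4, a receptor for R-spondins, was at 22.9 and 22.8 CPM. Among 15 target genes 7 were measured and 1 was called: Ccnd1 was at 91.4 and 154 CPM, a ratio of 1.68 (1.64 to 1.73). Twist1 was at 170 and 148 CPM. Ccnd1 was called higher in endothelial cells (219 and 419 CPM) and in macrophages (259 and 415 CPM) as well.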

How the data were processed

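Droplet 3′ single-cell RNA was measured in 1 library of wild type and 1 of Fbn1 C1039G/+ mitral valves. The authors deposited UMI counts per gene and barcode, made with Cell Ranger on the mm10 mouse genome; the submitters' processing notes give version 3.1.0 and the header of the matrix gives 5.0.1. No other filter by the authors is given in the sources used here, and no other columns of sample values were present (0). The 9 genes, the pathway lists and the anchor genes were chosen with earlier results of these data known, so no value here is independent support for a pattern seen before.

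Counts were summed per cell class and library and divided by the class total, as CPM. All intervals are at 95% and cover counting error only: Poisson (exact) for a level, conditional binomial (exact) for the ratio of a pair of levels, Clopper-Pearson for a share of cells, and Newcombe's method where shares were subtracted. PCR copies were collapsed by UMI, but cells of a library are not replicates, and no p-value was computed. A ratio is Fbn1 C1039G/+ over wild type unless stated. Detection shares, overlap and anchor sets used cells thinned at random to 5000 UMIs, with shallower cells left out. Agonist cells held a UMI of Rspo3 or Wnt9a after thinning.

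Genes named beyond the 9 were the 2 most abundant of each pathway list in interstitial cells, each called gene of a list, and up to 3 genes most like each member by Pearson's r of log(1 + UMIs). Ccn4, in the target list also under its older symbol Wisp1, was counted once. Scrublet called 1 and 2 barcodes as doublets (0.0106% and 0.0210%), so it did not work on these libraries. All barcodes were kept, and in an alternative the 732 and 751 barcodes with the highest scores (7.79% and 7.87%) were left out. Promoters were read from the RefSeq table of GRCm38.p6, which is the mm10 build. The ratio and thinning steps were checked on simulated counts. Python 3.11.15, numpy 2.4.6, scipy 1.17.1, pandas 2.3.3 and scanpy 1.11.5 were used.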

Additional observations from a re-analysis of the deposited data

Results flagged for a closer look

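Only the sexes and the cell classes were searched for differences between the libraries of opposite sign. In 2 cases the sign differed there, and neither case was tested. Ranges of matrix share and anchor sets were not searched, and they held opposite signs too. For example, Sfrp1 had a ratio of 0.842 (0.797 to 0.889) in cells with 1% to 2% of matrix UMIs. In cells with at least 5% its ratio was 1.54 (1.37 to 1.72). In the search by sex, the Sfrp1 log2 ratio was -0.18 in female and 0.14 in male interstitial cells, a difference of -0.32. For Axin2 it was -0.19 in interstitial and 0.40 in endothelial cells, a difference of -0.59.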

How the results depend on the processing

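No paired analysis was possible because the genotypes share only 1 replicate number and have 1 library each. Of values that answer a comparison, 78 stayed the same under an alternative, 27 moved and 1 changed sign. These include counts of called members, which have no interval and were judged by a 1.5-fold change in the count. Without those counts, 58 moved by less than their counting interval, 21 by more and 1 changed sign. For single genes 96 moved by less, 58 by more (with 6 changes of sign, all of Sfrp1 in interstitial cells, whose own interval included 0) and 4 changed sign from an interval that left out 0. The alternatives to scaling shifted the median log2 ratio of all genes by at most -0.025. Wnt9a was called lower under all alternatives except the 2-fold bar, where 0 members were called lower. With at least 5% of matrix UMIs required, Rspo3 (log2 ratio 0.16) and Sfrp2 (-0.037) changed sign, 1 member was called higher (Sfrp1) and 2 lower (Wnt9a and Wif1). In female cells 2 were called lower (Rspo3 and Wnt9a), and at the bar of a 25% increase 2 were higher and 3 lower.

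For cells with against without an agonist in wild type, a bar of at least 2 UMIs gave a Wif1 difference of 20.5 points. Splitting by Rspo3 alone gave -24.4 points for Sfrp2. Thinning to 2500 UMIs gave -15.0 points for Sfrp2 and a log2 ratio of 0.77 for Lef1, which was 1.68 at 8000 UMIs. In Fbn1 C1039G/+ the bar of 2 UMIs gave 26.4 points for Wif1, -20.9 for Sfrp2 and a log2 ratio of 0.0023 for Axin2. Splitting by Rspo3 alone gave 24.3 points for Wif1 and -22.8 for Sfrp2. Male cells gave 24.4 points for Wif1 and -22.8 for Sfrp2, and female cells -15.8 for Sfrp2 and a log2 ratio of 1.05 for Lef1, which was 1.07 at 2500 UMIs. Frzb changed sign at 8000 UMIs (0.448 points).

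Ranges of matrix share and the removal of single endothelial cells were added after seeing the data. Wild type cells with 1% to 2% gave 32.6 points for Wif1 and a Lef1 log2 ratio of 0.84, and those with 2% to 5% gave 15.5 points for Wif1. Fbn1 C1039G/+ cells with 1% to 2% gave 37.9 points for Wif1, -14.2 for Sfrp2 and, with changed sign, 1.74 for Frzb. Their log2 ratios were 0.18 for Lef1 and, with changed sign, -0.012 for Axin2. The higher matrix share bar leaves fewer cells; otherwise the cause was not tested. Counts limit the endothelial class, where Wif1 was not called without 1 wild type cell (log2 ratio -0.24).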

Other observations

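Endothelial cells (250 and 318) carried Wnt genes that were low in interstitial cells, described here after their values were seen. Wnt9b and Wnt4, both ligand genes, were the most abundant there: Wnt9b was at 350 CPM in wild type and 222 CPM in Fbn1 C1039G/+ (ratio 0.634, 0.585 to 0.688), and Wnt4 at 314 and 315 CPM. In interstitial cells Wnt9b was at 1.27 and 1.93 CPM and Wnt4 at 4.22 and 5.40 CPM. Wnt7a was called higher in Fbn1 C1039G/+ endothelial cells, at 11.4 and 52.1 CPM from 43 and 254 UMIs (ratio 4.59, 3.31 to 6.50). The receptor gene Fzd10 (28.3 and 48.8 CPM), the R-spondin receptor gene Lgr4 (14.3 and 23.8 CPM) and the target gene Sp5 (11.4 and 23.0 CPM) were also called higher. These calls and that of Wnt9b held without the cell with most UMIs of the gene in each library. The antagonist gene Dkk2 was at 203 and 159 CPM and was not called. In that class 3.22% of measured genes were called higher and 3.23% lower.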
